A study of Mus musculus with 4 samples.

Results

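B cells without Sox5 were picked out of single-cell RNA data from mouse lung by the transcripts they held. A barcode was a member if it carried a unique molecular identifier (UMI, the tag that marks 1 captured transcript) for at least 3 of the 6 genes Bank1, Pax5, Ighm, Btla, Ikzf3 and Ms4a1, and none for Sox5. It also had to hold fewer than 3 of the endothelial genes Cdh5, Ptprb, Pecam1, Tek and Calcrl, and fewer than 2 of the T cell genes Cd3e, Cd3g and Themis. The members were thus chosen by the measured UMI counts of these genes. A barcode was kept if 500 or more genes were detected and no more than 15% of its UMIs were mitochondrial, and 265 of the 16541 kept barcodes were members. Another 138 met every clause but carried a Sox5 UMI.

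The lungs came from C57Bl6/J mice aged 8 weeks, and the study concerns the loss of p73 in the lung. One pool, Cre_Pos, joined 6 mice that carry Shh-Cre and an allele of p73 floxed from exon 7 to exon 9. The other, Cre_Neg, joined 6 littermates that are homozygous for the same floxed allele and lack Cre. Shh drives Cre in lung epithelium during development. Cells positive for CD45 had been depleted, cells positive for EpCAM enriched, and live cells sorted, so the B cells are those that remained after a step meant to remove them. Both pools were barcoded together by SPLiT-seq and divided into 4 sublibraries, which are technical aliquots. There was thus 1 pool per genotype: differences between pools carry no test, and the intervals given are 95% intervals that cover counting error only.

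B cells bind antigen with an immunoglobulin receptor, whose heavy and light chains signal through Cd79a and Cd79b. Mature naive B cells splice the same heavy chain transcript into IgM and IgD, and in follicles they carry the low-affinity IgE receptor CD23 (Fcer2a). Innate-like B1 cells and memory B cells carry less IgD or none and use other gene sets. Sox5 is a transcription factor reported in atypical memory B cells.

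The genes used by the rule describe the members and are no finding. In the Cre_Neg and Cre_Pos members, Bank1, an adaptor of receptor signalling, was detected in 97.5% and 95.2% of cells and Pax5, the factor that fixes B cell identity, in 93.3% and 94.5%. Ms4a1, which encodes CD20, was the least often detected of the 6, in 76.7% and 71.7%. Of the 265 members, 176 held all 6 genes, 69 held 5, 6 held 4 and 14 stood at the limit with 3. Just outside the rule stood 97 barcodes without Sox5 that held 2 of the 6, with 2 UMIs of Ighd and 93 of Ighm in all. On the side of Sox5 stood 14 B cells with a single Sox5 UMI, which held Ighd at 1079 CPM (counts per 1e6 UMIs) and Fcer2a at 337 CPM.

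B cell genes outside the rule were present too. Ighd, the IgD heavy chain, was detected in 86.7% (95% exact binomial interval 79.2 to 92.2) of the 120 Cre_Neg members and 89.7% (83.5 to 94.1) of the 145 Cre_Pos members. Ebf1, the factor that starts the B cell programme, was detected in 96.7% and 94.5%, Cd22 in 80.8% and 80.7%, and Cd79a in 54.2% and 60%. For background from free RNA, alveolar type 2 (AT2) cells were taken as barcodes with all of Sftpc, Lamp3, Slc34a2, Lpcat1 and Abca3 and fewer than 2 of the 6 rule genes, which by construction limits those 6 genes there. In AT2 cells of the Cre_Neg pool Cd79a was detected in 0.402% and Ebf1 in 1.36%, at a median of 12042 UMIs against 4394 in the members. With each cell thinned to 2000 UMIs, Cd79a was found in 32.7% and 30% of the members and 0.0508% of the Cre_Neg AT2 cells. The label of B cells fits these markers. Ptprc, which encodes CD45, was detected in 98.3% and 100% of the members.

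**Figure D1:**
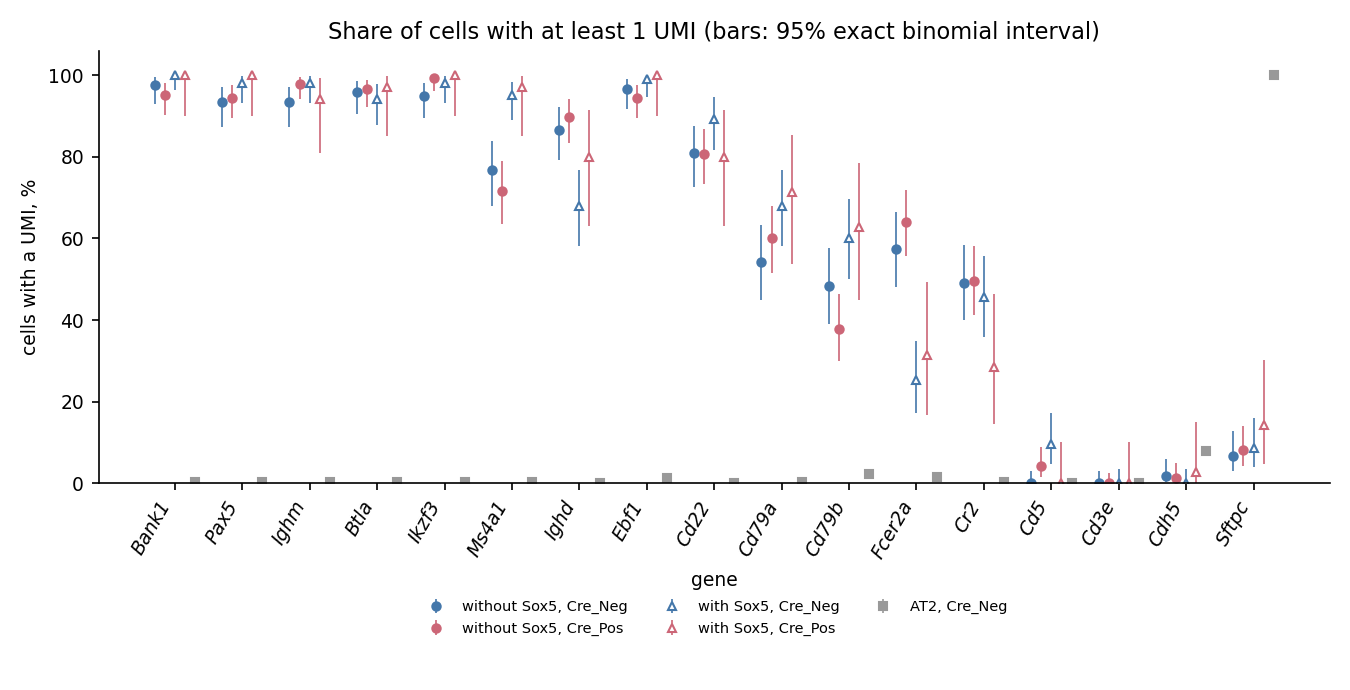
Percentage of cells with at least 1 UMI of each gene (vertical axis) for the B cells without Sox5 (filled circles), B cells with Sox5 (open triangles) and Cre_Neg AT2 cells (grey squares), blue for Cre_Neg and red for Cre_Pos, with 95% exact binomial intervals for every group. The B cell genes from Bank1 to Cr2 lie far above the AT2 cells, Fcer2a is detected in 57.5% and 64.1% of the members against 25.2% and 31.4% of the B cells with Sox5, and Cd3e is at 0 in all 4 B cell groups.

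The 14 members at the limit of 3 genes were unlike the rest. They held 0 UMIs of Cd79a and 2 of Ighd, where the 176 members with all 6 genes held 211 and 1040. Of the 14, 13 carried at least 3 genes of another cell type's list. All 5 members with 3 or more T cell genes, all 5 with monocyte or macrophage genes, and the single members with natural killer and with neutrophil genes were among them. Dendritic cell genes were seen in 3 members, 2 of which were among the 14. Among the 245 members with at least 5 of the 6 genes, no cell held 3 genes of the T, natural killer, monocyte, dendritic or neutrophil lists. At least 3 of the 10 ciliated genes were held by 1 Cre_Neg and 3 Cre_Pos members, all of them among the 245. AT2 genes were more widely spread: 17 Cre_Neg and 18 Cre_Pos members held at least 3 of the 10. Among the 245, most UMIs of this list were of Napsa (169), Lpcat1 (124) and Abca3 (114). The surfactant genes Sftpb, Sftpc, Sftpa1 and Sftpd gave 23, 22, 11 and 5. Values among the 245 are set beside several of the results that differ there, and not beside every value.

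The promoter sequences below are shown because Cd22 and Btla, both inhibitory receptors of B cells, were the genes whose promoters held a lineage factor's motif among those looked up. Of 12 B cell genes sought in the RefSeq table (build GRCm38.p6), 6 were found, in 7 windows of 250 bases upstream of a start site. The motifs searched, on both strands, were TCCC and GGGA 2 bases apart for EBF1, GAGGAAGT for PU.1 and the octamer ATTTGCAT. They do not overlap each other in these windows, and capitals mark the match. Cd22 (chr7:30879029-30879278, minus strand) held the EBF1 motif from base -49 to -40, and Btla (chr16:45224087-45224336, plus strand) the PU.1 motif from base -18 to -11.
Cd22: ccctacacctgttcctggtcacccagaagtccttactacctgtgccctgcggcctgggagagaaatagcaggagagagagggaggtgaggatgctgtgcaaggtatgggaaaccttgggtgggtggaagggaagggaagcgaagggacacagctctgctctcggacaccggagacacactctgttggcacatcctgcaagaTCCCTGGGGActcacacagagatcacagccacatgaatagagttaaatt
Btla: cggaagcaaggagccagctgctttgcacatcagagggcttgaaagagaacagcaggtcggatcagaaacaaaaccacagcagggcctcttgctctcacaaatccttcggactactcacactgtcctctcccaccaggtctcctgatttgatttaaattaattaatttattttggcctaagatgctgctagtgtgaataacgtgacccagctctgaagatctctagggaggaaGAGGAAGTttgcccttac
Of 32851 windows of this length, 0.779% held the EBF1 motif, 2.44% the PU.1 motif and 1.6% the octamer. A match is a run of letters and shows no binding. Cd22 reached 630 CPM in the Cre_Neg and 549 in the Cre_Pos members, and Btla 1449 and 1452 CPM.

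The members' share of the lung cells kept was close in the pools. They were 1.54% (1.28 to 1.84) of 7793 Cre_Neg barcodes and 1.66% (1.40 to 1.95) of 8748 Cre_Pos barcodes, a ratio of 1.08 (0.839 to 1.38). In sublibraries 1 to 4 the Cre_Neg share was 1.71%, 1.22%, 1.44% and 1.88%, and the Cre_Pos share 1.74%, 1.94%, 1.6% and 1.2%. The ranges overlap, and the ratio ran from 0.639 to 1.58 across sublibraries. Without sublibrary 2 it was 0.934, below 1. A difference in the number of B cells and one in the yield of the CD45 depletion cannot be told apart.

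B cells with Sox5 differed more between the pools. They were 1.32% (1.08 to 1.6) of the Cre_Neg and 0.400% (0.279 to 0.556) of the Cre_Pos barcodes, 3.30-fold (2.23 to 5.00) lower in Cre_Pos. All B cells, with and without Sox5, were 1.39-fold (1.14 to 1.70) lower in Cre_Pos as a share of kept barcodes. Their ratio of Cre_Pos over Cre_Neg was 0.688, 0.832, 0.749 and 0.575 in sublibraries 1 to 4. The members thus made up 53.8% (47.0 to 60.5) of the 223 Cre_Neg B cells and 80.6% (74.0 to 86.1) of the 180 Cre_Pos B cells. By sublibrary the values were 52.2%, 44.8%, 55.6% and 66.7% in Cre_Neg, and 77.4%, 85.5%, 82.2% and 74.1% in Cre_Pos. Every Cre_Pos aliquot stood above every Cre_Neg aliquot, but aliquots of 1 pool are no replicates. The Sox5-positive B cells of the Cre_Neg pool also carried more of the transcript, with a median of 29 Sox5 UMIs against 5 in Cre_Pos.

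**Figure D2:**
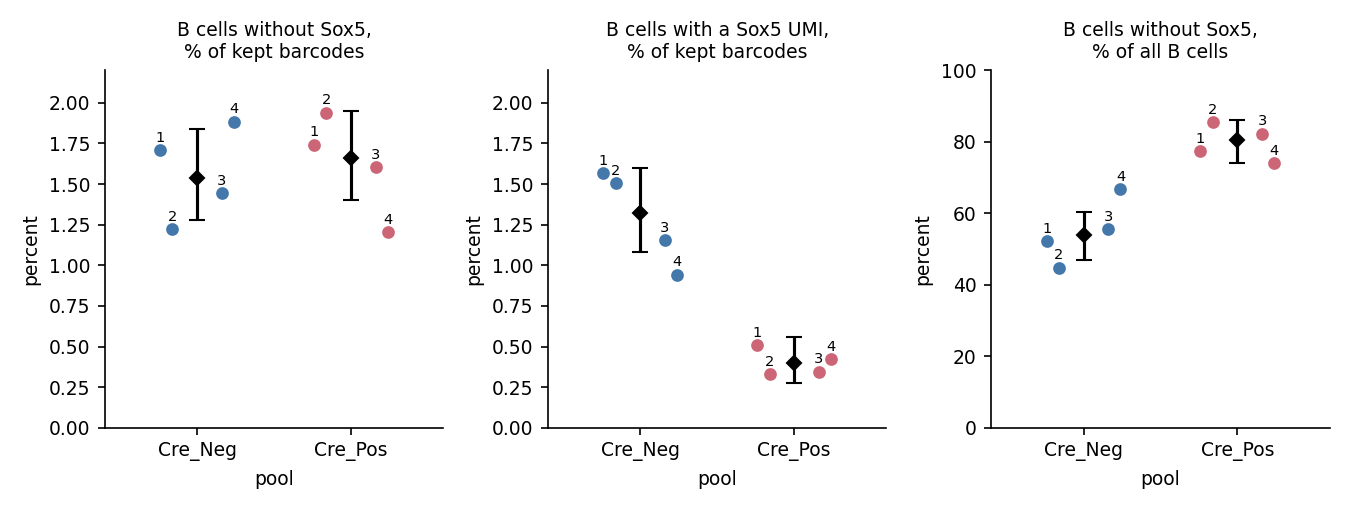
Share of B cells without Sox5 and of B cells with a Sox5 UMI among kept barcodes, and share of B cells without Sox5 among all B cells, in percent, for the Cre_Neg and Cre_Pos pools. Coloured points are the 4 sublibraries by number, and diamonds with bars the whole pool with its 95% exact binomial interval. The first share is 1.54% and 1.66%, while the third is 53.8% in Cre_Neg and 80.6% in Cre_Pos.

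Depth and sex of the cells moved with these shares. Members had a median of 4394 UMIs in Cre_Neg and 5060 in Cre_Pos, and B cells with Sox5 had 7927 and 6265. Sox5 was found in 46.2% and 19.4% of the B cells as sequenced and, after thinning to 2000 UMIs, in 41.8% (35.0 to 48.8) of Cre_Neg and 14.3% (9.46 to 20.4) of Cre_Pos B cells. AT2 cells gave 11.7% and 10.7% at the same depth, so the Cre_Pos value lies near that of AT2 cells. Cells with Y-linked UMIs and no Xist UMI were 13 of the 90 Cre_Neg members with a call of 1 sex and 4 of the 123 in Cre_Pos. In the B cells with Sox5 they were 34 of 94 and 0 of 28. Within cells that held Xist and no Y-linked UMI, the members were 56.2% (47.5 to 64.7) of the Cre_Neg and 81.0% (73.7 to 86.9) of the Cre_Pos B cells. Among cells with neither Xist nor Y-linked UMIs they were 80% (63.1 to 91.6) of 35 Cre_Neg and 73.1% (52.2 to 88.4) of 26 Cre_Pos B cells, so the order turned there, on few cells and with intervals that overlap. A difference between pools cannot be told apart from a difference between single mice.

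The heavy chain genes described most members as IgM and IgD cells. UMIs of both Ighm and Ighd were found in 229 of 265 members, 86.4% (81.7 to 90.3), against 95 of 138 B cells with Sox5, 68.8% (60.4 to 76.4). Ighm stood at 1092, 1291, 1317 and 1113 CPM in sublibraries 1 to 4 of the Cre_Neg members and at 1164, 833, 1274 and 995 CPM in those of Cre_Pos. Ighd stood at 953, 1119, 1129 and 1107 CPM in Cre_Neg and 1143, 911, 925 and 861 CPM in Cre_Pos. Both genes overlapped between the pools. There were 0.915 Ighd UMIs per Ighm UMI in the members and 0.203 in the B cells with Sox5, which are the deeper cells. Ighm itself was a gene of the rule.

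Class-switched transcripts were rare. A UMI of Ighg1, Ighg2b, Ighg2c, Ighg3, Igha or Ighe was found in 8 members, 3.02% (1.31 to 5.86), 6 of them Cre_Neg. One Cre_Pos cell held 32 of the 35 Igha UMIs, with 11 UMIs of Jchain, the joining chain of secreted IgA and IgM, and no Ighm or Ighd. Ighg2b gave 40 UMIs, in 5 members that held from 2 to 12 each. The other switched UMIs were 10 of Ighg3, 2 of Ighg2c and 3 of Igha. Members held 87 switched UMIs in all, and B cells with Sox5 held 22 in 11 cells.

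Light chain transcripts were shallow. Of the 222 members with a UMI of Igkc or of Iglc1, Iglc2 or Iglc3, 113 held kappa alone, 21 lambda alone and 88 both, which is 39.6% (33.2 to 46.4). With at least 2 UMIs asked of each type, 27 of 163 held both, or 16.6% (11.2 to 23.2). A mature B cell usually expresses 1 light chain type. Both pools gave the same picture, with 39.6% and 39.7% at 1 UMI. Iglc2 and Iglc3 are near-identical copies, so their separate counts of 84 and 71 UMIs are uncertain. Lambda gave 23.0% of the 842 light chain UMIs of the members and 24.1% of the 843 of the B cells with Sox5. The part that free RNA or doublets take in the cells with both types was not tested, and Scrublet called none of the 265 members a doublet (189 of all kept barcodes, 1.14%).

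**Figure D3:**
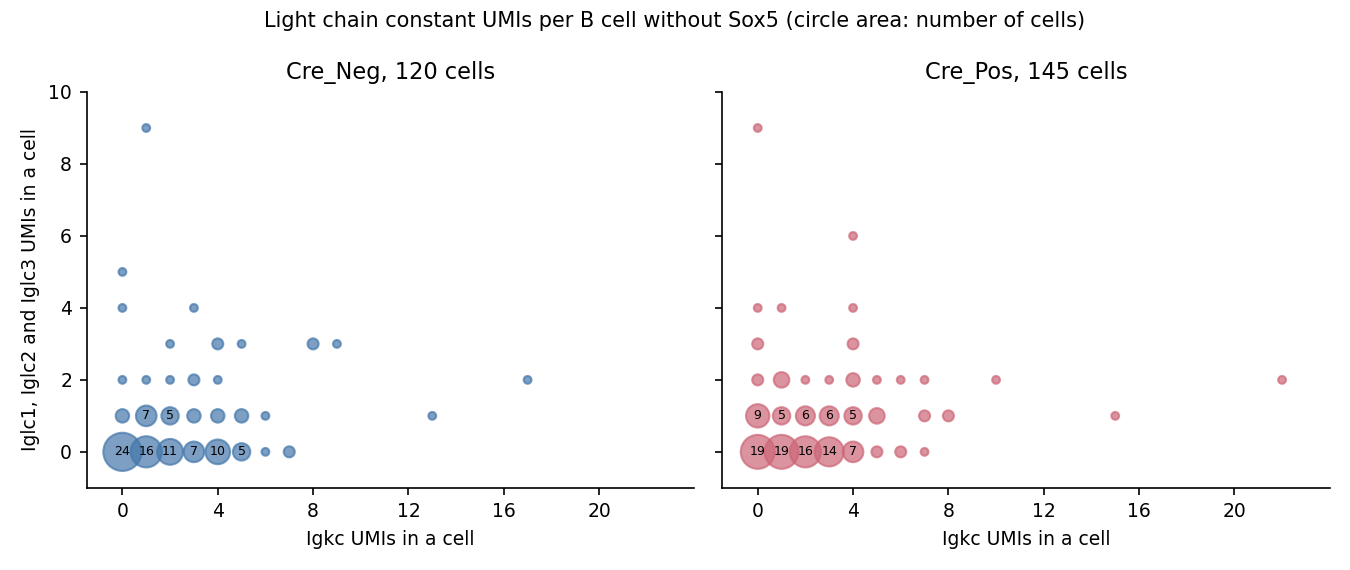
UMIs of Igkc (horizontal axis) against summed UMIs of Iglc1, Iglc2 and Iglc3 (vertical axis) in each B cell without Sox5, by pool, with circle area and the printed number (from 5 up) giving the cells at a point. Cells with neither type number 24 in Cre_Neg and 19 in Cre_Pos, where another 19 held 1 Igkc UMI alone, and cells off both axes number 38 and 50.

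Variable segments were spread over many genes. The members held 176 UMIs over 58 of the 183 Ighv segments in the table, and the most used segment, Ighv1-53, took 5.68% of them in 2 cells. Of 265 members, 10 held 2 or more Ighv segments, 100 held 1 and 155 held none. Of the Igkv segments 40 of 160 were seen, led by Igkv1-117 with 9.92%. Most members held 1 segment or none, so the depth limits any account of clones.

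The clearest contrast lay between B cells without and with Sox5. It compares summed UMI shares, and since the rule divides the same cells by a transcript it is a description with no test. A gene counts as past 2-fold if its log2 ratio was at least 1 in size, with the same sign in both pools. Of 7548 genes with 30 UMIs or more, 8.93% were past 2-fold, 4.64% higher and 4.29% lower in the cells without Sox5. The median gene stood at 0.08 on the log2 scale. In the gene lists that follow, 20 UMIs were asked and the size of the ratio alone counts, without the sign in each pool. On that measure 6.05% of 8745 genes were past 2-fold higher and 6.7% lower.

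Genes of follicular B cells were higher in the cells without Sox5. Of 10 in the list, all with 20 UMIs or more, 6 were past 2-fold higher and none lower, with a median log2 ratio of 1.22. Satb1, a chromatin organiser, stood at 697 CPM without and 142 CPM with Sox5, a log2 ratio of 2.30 (2.05 to 2.55). Fcer2a (CD23) stood at 322 and 86.9 CPM, a log2 ratio of 1.89 (1.57 to 2.23). By sublibrary the members held 331, 286, 251 and 210 CPM of Fcer2a in Cre_Neg and 412, 332, 271 and 477 CPM in Cre_Pos. The B cells with Sox5 held 84.4, 90.9, 63.2 and 48.7 CPM in Cre_Neg and 34.8, 99.8, 19.4 and 437 CPM in Cre_Pos, where the last aliquot holds 7 such cells. Outside that aliquot every value with Sox5 lay below every value without. Ighd (log2 ratio 1.58), Bach2, which holds back plasma cell fate (1.25), and Ccr7, a lymph node homing receptor (1.19), were also past 2-fold. Of the 138 cells with Sox5, 103 were Cre_Neg, and Bach2 differed by pool. In Cre_Neg it stood at 1608, 1682, 1763 and 1655 CPM by sublibrary with Sox5 and 4764, 5303, 4827 and 4581 CPM without. In Cre_Pos it stood at 1473, 6385, 4150 and 7313 CPM with Sox5 and 6565, 4824, 6692 and 5561 CPM without. The ranges overlap there. The lowest genes of the list were S1pr1, which guides exit from lymphoid tissue, at -0.04 and Cxcr5, which guides cells into follicles, at -0.05. Restricted to cells with at least 5 of the 6 rule genes the median of the list was 1.28.

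Genes of B1 and memory B cells were lower in the cells without Sox5. In the B1 list 9 of 12 were past 2-fold lower, with a median of -2.01. S100a6, a calcium-binding protein, had 3 UMIs in the members and 74 in the B cells with Sox5, a log2 ratio of -4.96 (-7.27 to -3.36). Ctla4, an inhibitory receptor, had 6 UMIs in 5 members and 138 in 47 cells with Sox5, a log2 ratio of -4.86. Zbtb32 and Bhlhe41, transcription factors of innate-like B cells, stood at -3.23 and -1.99. Both were lower without Sox5 in every Cre_Neg sublibrary. The Cre_Pos sublibraries were less even. Zbtb32 was at 0 in both groups in sublibraries 3 and 4, and Bhlhe41 stood at 48.8 CPM without and 49.9 CPM with Sox5 in sublibrary 2. The highest of the list were Slc15a2, a peptide transporter, at 0.50 and Spn (CD43) at -0.10. In cells with at least 5 rule genes, Spn stood at -1.78, and 10 of 11 genes with 20 UMIs were past 2-fold lower, with a median of -2.25.

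In the memory and age-associated list 7 of 11 genes with 20 UMIs were past 2-fold lower and 1 higher, with a median of -1.17. Cd80, a costimulatory ligand, stood at 13.6 CPM without and 178 CPM with Sox5, a log2 ratio of -3.71 (-4.47 to -3.03). Fcrl5, an Fc receptor-like protein, stood at -3.47, and Zbtb20, a zinc finger factor, at -0.25. Tox, a nuclear factor, was higher without Sox5 at 3.34, on 64 UMIs against 5. With at least 5 rule genes the median of this list was -1.96.

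Of the cell cycle genes, Mki67, Top2a and Cenpf were nearly absent from the members. Mki67 gave 2 UMIs in 2 members and 164 in 14 B cells with Sox5, of which 1 cell held 39.6%. Its log2 ratio was -6.82 within Cre_Neg and -1.71 within Cre_Pos, where few Mki67 UMIs were seen. Top2a gave 6 and 105 UMIs, and Cenpf 0 and 26. With the 0 set to a floor of 3 counts, Cenpf was 10.95-fold lower. Of 7 cell cycle genes with 20 UMIs, these 3 were past 2-fold lower. The other 4 were within 2-fold, at -0.92 for Hells, -0.67 for Mcm6, -0.37 for Pcna and -0.10 for Mcm5, and Mcm5 and Mcm6 are replication helicase subunits.

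Antigen presentation differed less. Of 12 genes of the MHC class II list 1 was past 2-fold higher, H2-Oa at 2.40 on 40 UMIs against 6, and the median was 0.44. Ciita, the master activator of class II genes, stood at 0.90. Cd86, a costimulatory ligand, was the lowest at -0.53, followed by Ctss at -0.12. Of 20 receptor signalling genes 1 was past 2-fold, Rasgrp3, a Ras activator, at 1.63, with a median of 0.03. Pik3ap1 stood at 0.72, and the lowest were Dapp1 at -0.40 and Vav2 at -0.39. Of the 12 inhibitory receptors and phosphatases with 20 UMIs, Cd72 at 1.19 and Lair1 at 2.98 were past 2-fold higher and Ptpn22 lower at -1.67. Btla, a gene of the rule, stood at 1.01, from which nothing is read. Lair1 had 0 UMIs in the 245 members with at least 5 rule genes, against 5 UMIs in 1 cell with Sox5. Cd5 was second lowest at -0.88, and among the 245 it had 2 UMIs against 16 with Sox5, a log2 ratio of -3.20 (-6.36 to -1.11).

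**Figure D4:**
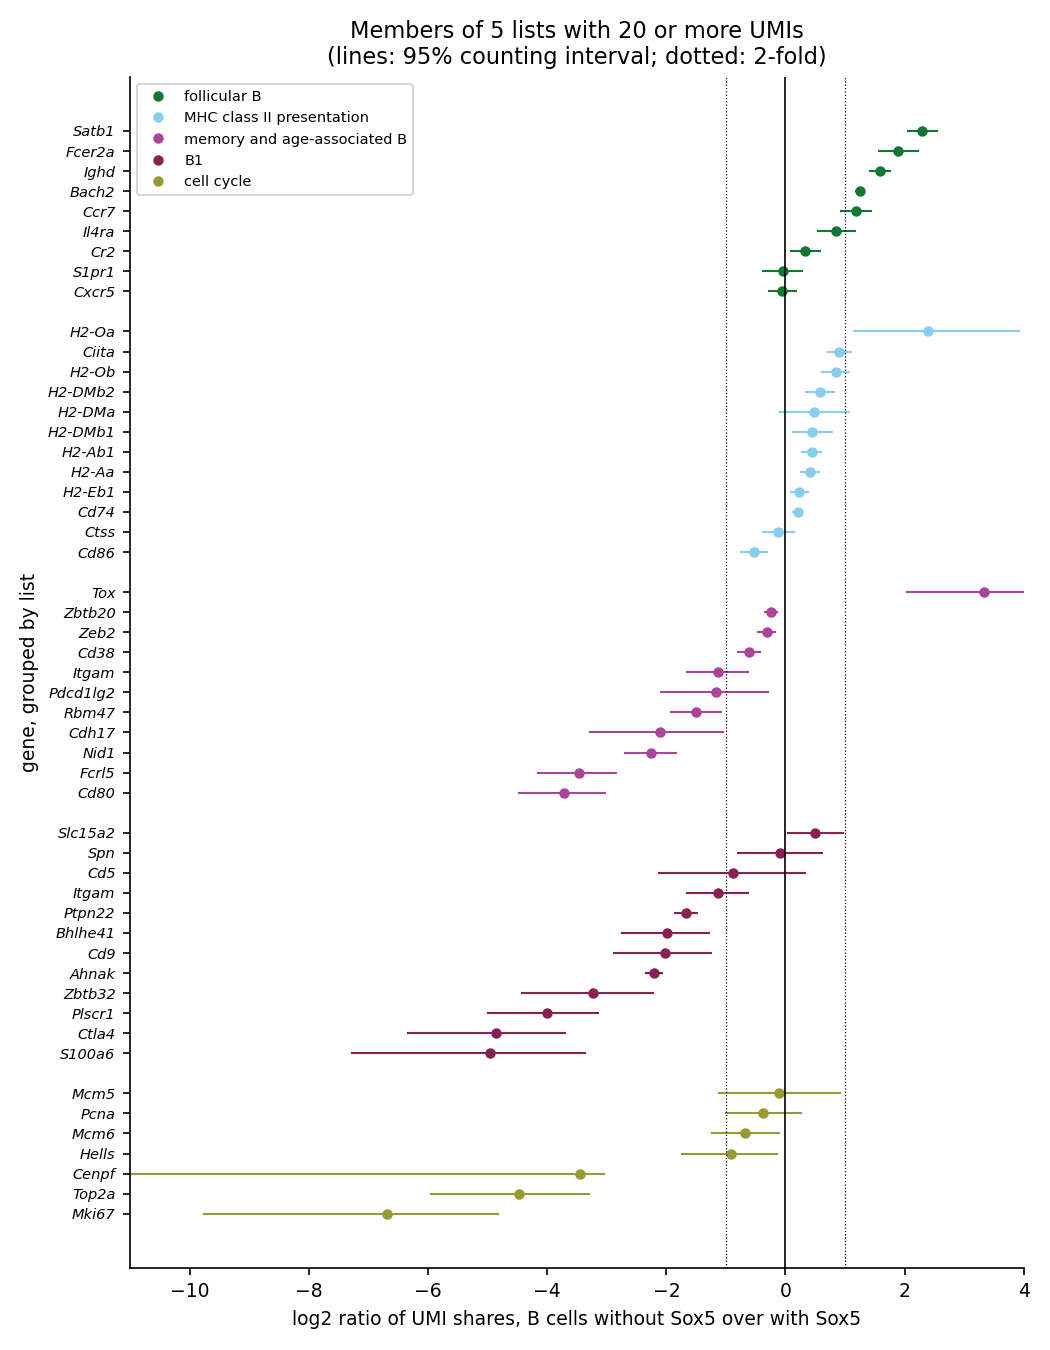
Log2 ratio of UMI shares in B cells without over with Sox5 (horizontal axis) for genes of 5 lists with 20 UMIs or more (vertical axis, coloured by list), with 95% counting intervals cut at the edges of the axis and dotted lines at 2-fold; 1 follicular gene is not drawn. Follicular genes lie from -0.05 to 2.30, B1 genes from -4.96 to 0.50, and Mki67 at -6.70 is the lowest.

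The genes that led the contrast by a fixed rule, ranked by the interval bound nearest 0, read differently on the higher side. Among the 10 higher genes were Fyb, Siglech, Gm2682, Grm8, Adgre4, Skap1, Lcp2, Gpr141 and Il1b, several of them genes of T cells, plasmacytoid dendritic cells and monocytes. In 7 of the 10 the members' UMIs came from fewer than 10 cells. Among the 245 members with at least 5 rule genes, Fyb, Siglech, Adgre4 and Il1b had 0 UMIs and Lcp2 had 2. Skap1, a T cell adaptor, had 37 UMIs there against 0 with Sox5. With the 0 set to a floor of 3 counts its log2 ratio was 3.43, and its interval began at 3.055. Of the 10 lower genes, Pou2af2, Mki67, Lmo7, Zfp811, Nrp2, Ahnak2, Gm15228, Ctla4, Tppp and Dnase1l3, 7 had UMIs in at least 10 cells of the group with Sox5 with no cell above 20%. Lmo7 was found in 51 of the 138 cells with Sox5 and 8 of the 265 members, and Nrp2, a semaphorin receptor, in 44 and 2.

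Genes that meet both limits, UMIs in at least 10 cells of the higher group and no cell with more than 20% of them, are called spread, a measure added after the data were seen. Counting only these, 3.56% of the genes were past 2-fold higher and 3.58% lower. Fyb and Skap1 still came first among the 10 that then led the higher side. Atp8b4 was also among them at 3.685, and stood at 0.61 in cells with at least 5 rule genes. Others of the 10 were Satb1, Neurl3, a ubiquitin ligase, at 2.68, Plcl1 at 2.64 and Zfp318, which is needed for IgD splicing, at 2.08. Zfp318 stood at 429 CPM in the members and 101 CPM in the cells with Sox5. It was detected in 199 of 265 and 55 of 138 cells. The AT2 list moved with this contrast. It summed to 396 and 381 CPM in the Cre_Neg and Cre_Pos members and 709 and 513 CPM in the B cells with Sox5, and 5 of its 9 genes with 20 UMIs were past 2-fold lower without Sox5, with a median of -1.0. One Cre_Neg cell with Sox5 held 201 of that group's 611 AT2 UMIs, and Scrublet called 3 of the 138 B cells with Sox5 doublets. The median was -0.09 without the barcodes that Scrublet called and -0.13 without sublibrary 1. All 4 Y-linked genes were lower too, with a median of -1.41. Their part in the contrast was not tested.

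Within the members, Cre_Pos and Cre_Neg cells were compared on 798386 and 598217 UMIs. Of 5934 genes with 30 UMIs or more, 5.49% were past 2-fold, 2.01% higher and 3.49% lower in Cre_Pos, and the median stood at 0.02. When each cell counted equally, as a mean of each cell's CPM, 169 genes were higher and 192 lower, against 119 and 207 in the sums. With genes required to be spread the shares were 1.67% and 1.4%. By the measure used for lists, 2.89% of 7033 genes with 20 UMIs were past 2-fold higher and 5.64% lower. For genes with 30 to 60 UMIs the interval had a median width of 1.97 on the log2 scale, so differences under 2-fold were not detectable for them at this depth.

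Receptor signalling genes differed little between the pools. None of the 20 signalling genes was past 2-fold, with a median of -0.03. Syk, the kinase next to the receptor, was highest at 0.32 (0.21 to 0.43) and Blk, a Src-family kinase, next at 0.26. Vav3 at -0.50 and Lyn at -0.27 were lowest. None of the 12 MHC class II genes was past 2-fold, from H2-Oa at -0.71 and H2-DMa at -0.50 to H2-DMb2 at 0.18 and H2-Eb1 at 0.27. In the follicular list 8 of 10 stood above 0, as did 3542 of the 7033 genes with 20 UMIs. None of the 10 was past 2-fold, and their median was 0.27. Satb1 stood at 547 CPM in Cre_Neg cells against 810 CPM, a log2 ratio of 0.57 (0.37 to 0.76), and Cxcr5 at 0.55. Cr2, the complement receptor CD21, at -0.37 and Ighd at -0.15 were the lowest.

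The constant genes ranged more widely where they were few. Ighm was at -0.20 (-0.35 to -0.06), Igkc at -0.11, Iglc1 at -0.49, Iglc2 at 0.21 and Iglc3 at 0.03. Igha at 3.00 and Ighg2b at -1.64 were past 2-fold, on 35 and 40 UMIs from the few cells described above. Of the rule's genes, Bank1 stood at 0.03, Pax5 at 0.23, Btla at 0.00, Ikzf3, an Ikaros-family factor, at 0.16 and Ms4a1 at -0.43 (-0.65 to -0.20). Ms4a1 held 552, 534, 627 and 484 CPM in the Cre_Neg sublibraries and 371, 381, 440 and 468 CPM in those of Cre_Pos. These values do not overlap, as was so for 1.62% of the 5934 genes with Cre_Pos lower and 2.29% with Cre_Pos higher, and since Ms4a1 chose the members nothing is read from it.

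Activation genes went both ways. Of 18 with 20 UMIs, 3 were past 2-fold higher in Cre_Pos and 2 lower, with a median of 0.06. Nr4a3, an immediate early nuclear receptor, had 2 UMIs in 2 Cre_Neg cells and 42 in 13 Cre_Pos cells, a log2 ratio of 3.98 (2.03 to 7.07). Ier2 stood at 1.46 on 6 and 22 UMIs, and Myc, a regulator of cell growth, at 1.14. Jun, a subunit of the AP-1 factor, had 103 UMIs in 35 Cre_Neg cells and 40 in 25 Cre_Pos cells, a log2 ratio of -1.78, and was at 0.03 in sublibrary 2. Atf3 stood at -2.09, with 55.7% of the Cre_Neg UMIs in 1 cell, and at -5.81 among the 245, on 40 UMIs in Cre_Neg against 1. In the survival list of 13 genes none was past 2-fold. Tnfaip3, a brake on NF-kB, stood highest at 0.99 with Traf1 at 0.86, which were 0.70 and 0.17 among the 245, and Nfkbiz lowest at -0.25 before Birc3 at -0.06. Rel at 0.70 (0.48 to 0.93) was above 0 in all 4 sublibraries.

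Interferon genes were within 2-fold among all members. Of the 20 in the list, 9 had 20 UMIs, and 8 of those lay below 0, as did 3491 of the 7033 genes with 20 UMIs, with a median of -0.59. Among the 245, all 8 with 20 UMIs lay below 0, 1 of them past 2-fold, with a median of -0.50. Irf7, a regulator of interferon genes, was lowest at -0.90 with Zbp1 at -0.78 (-1.02 among the 245), and Gbp7 at 0.08 and Parp14 at -0.16 were highest.

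Several of the genes that led the pool comparison by the fixed rule rested on few cells. The 10 higher in Cre_Pos were Il7r, Prkcq, Nr4a3, Lef1, Ms4a4b, Znrf3, Sidt1, Crem, Vps37b and Pfkl. Of these, Crem, Vps37b and Pfkl were spread, and 3 of the 10 had UMIs in fewer than 10 Cre_Pos cells. Among the 245, Sidt1 was no longer past 2-fold, at 0.75. Il7r, the interleukin 7 receptor, had 45 UMIs in 6 Cre_Pos cells and none among the 245 members with at least 5 rule genes. Prkcq, a kinase of T cell receptor signalling, had 2 UMIs in each pool there, and Lef1 stood at 0.83 there against 2.68 in all. The T cell list summed to 26.7 CPM in Cre_Neg, all from Skap1 with the other 9 genes at 0, and to 250.5 CPM in Cre_Pos with Cd3e and Cd3d at 0.

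The 10 lower in Cre_Pos were Ankfn1, Jazf1, Mecom, Gda, Lrmda, Ank3, Mpeg1, Apba1, Lyz2 and Sirpa. None was spread: 6 of the 10 had UMIs in fewer than 10 Cre_Neg cells, and in 4 a single cell held more than 50% of them. One Cre_Neg cell held 93.1% of the Ankfn1 UMIs and 85.4% of those of Mecom, a zinc finger factor. Lyz2, the lysozyme of myeloid cells, had 120 and 24 UMIs, and 11 and 5 among the 245. Apba1 turned from -3.04 to 0.73 there, and Gda and Sirpa each had 1 Cre_Neg UMI and 0 in Cre_Pos. The others of the 10 stayed past 2-fold lower among the 245. Ankfn1 stood at -6.35 there, Jazf1 at -4.66 with its 0 set to the floor, Mecom at -3.97 and Ank3 at -3.01. The monocyte and macrophage list summed to 393 CPM in Cre_Neg and 128 CPM in Cre_Pos, with C1qa and Marco at 0 in both. The ciliated list summed to 590 and 197 CPM, with 239 of 353 Cre_Neg UMIs in 1 cell. Among the 245, 4 of its 5 genes with 20 UMIs were past 2-fold lower in Cre_Pos, with a median of -4.13. Cfap43, a gene of that list, alone gave 132 Cre_Neg and 138 Cre_Pos UMIs among the 245. The part that cells with genes of these lists take in other genes was not tested.

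**Figure D5:**
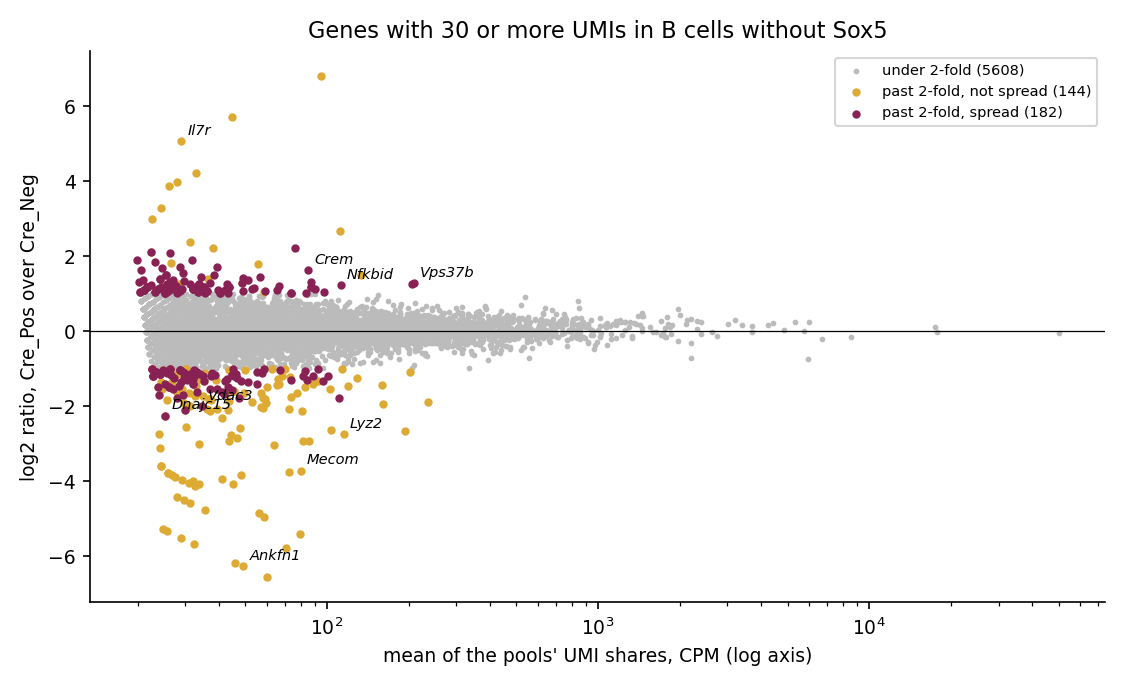
Log2 ratio of Cre_Pos over Cre_Neg (vertical axis) against the mean UMI share in CPM (horizontal log axis) for the 5934 genes with 30 UMIs or more in B cells without Sox5. Grey points are under 2-fold, yellow points past 2-fold but not spread, and purple points the 182 past 2-fold and spread. Il7r at 5.08 and Ankfn1 at -6.27 are among the yellow points.

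The genes below were chosen as past 2-fold, spread and of the same sign in all 4 sublibraries. They are among those that ranked first by the interval bound nearest 0, picked after the data were seen. Crem, a cyclic AMP response factor, stood at 41.8 CPM in Cre_Neg cells against 129 CPM, a log2 ratio of 1.63 (0.98 to 2.32), and at 1.56, 1.77, 2.33 and 0.76 in the 4 sublibraries. Vps37b, an endosomal sorting protein, stood at 122 and 297 CPM, with a log2 ratio of 1.28 (0.90 to 1.68). Nfkbid, an atypical inhibitor of NF-kB, was detected in 26 of 120 and 64 of 145 cells, with a log2 ratio of 1.24. Also on this side were Pfkl, Hhat, Arl5b, Zfp827, Nr1d2 and Dcaf13, from 1.31 to 2.09. Lower in Cre_Pos were Dnajc15, a mitochondrial co-chaperone, at -2.25 and Vdac3, a mitochondrial channel, at -2.0. With them stood Gm20429, Zdhhc6, Sorcs2, Anp32e, Orc2, Ubald2 and Ap1s2, from -2.10 to -1.33. Among the 245, Ap1s2 was no longer past 2-fold, at -0.83 (-1.91 to 0.22).

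The targeted gene could not be checked in these cells. Trp73, the gene of p73, gave 6 UMIs in 1 Cre_Neg member and 0 in the 145 Cre_Pos members, where the 95% exact binomial interval reaches 2.51% of cells with a UMI. The count covers the whole gene and not the floxed exons alone.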

How the data were processed

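Single-cell RNA from mouse lung was measured by SPLiT-seq in 4 sublibraries that mix both pools. The authors deposited raw UMI counts per barcode and gene, per the file headers; counts of genes and UMIs per barcode came with them. GRCm39 is named in the submitters' processing notes, while the deposited gene table names mm10; which aligner made the counts is not stated in the sources used here. The table holds 647296 barcodes and 191160309 UMIs, and its sums equal the deposited UMI counts in every barcode and the gene counts in 647295. Symbols on several IDs (147) were summed.

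Counts were summed per pool and cell group and divided by the group's UMIs. Ratios carry exact conditional binomial intervals and shares Clopper-Pearson intervals, at 95%, which cover counting error only. A group at 0 was set to a floor of 3 counts. There is 1 pool per genotype, so no p-value is given, and the ratio code was tested on simulated data. Members and lists were chosen with earlier results of these data known. Genes were named by a rule: 30 UMIs, past 2-fold, the same sign in all 4 sublibraries (or both pools), ranked by the interval bound nearest 0, the first 10 each way, without mitochondrial, ribosomal, haemoglobin, immunoglobulin variable, Y-linked genes and Xist; plus the 2 highest and 2 lowest with 20 UMIs of each list, the constant genes and the rule's genes. Genes added beside these were chosen after their values were seen. Doublets were called with Scrublet per sublibrary (scanpy 1.11.5) and left in; 11 members share a well combination with a kept barcode of another sublibrary. Scaling factors of edgeR and DESeq2 served as alternatives. Some genes that the rule names are not reported here.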

Additional observations from a re-analysis of the deposited data

Results flagged for a closer look

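In 44 groups of 4 sublibrary values checked, 2 had 1 sublibrary far from the other 3; chance alone gives about 1 group in 20. Ighd in the Cre_Neg members stood at 952.8 CPM in sublibrary 1 against 1107 to 1129 CPM in the others. Btla in the Cre_Pos members stood at 1204 CPM in sublibrary 4 against 1466 to 1514 CPM.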

How the results depend on the processing

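The ratio of member shares ran from 0.719 to 1.21 under the alternatives. Every value lay within 1 standard deviation of its 4 sublibrary values. That is a wide limit, since these ran from 0.639 to 1.585, so little is read from it. The 0.719 is the ratio for all B cells, with any Sox5 count, and its interval of 0.588 to 0.879 lay below 1. The ratio was also below 1 without sublibrary 2, and leaving out each sublibrary gave 0.934 to 1.21. The members' share of B cells was higher in Cre_Pos by 21.4 to 30.9 percentage points under the alternatives run, against 26.7, but lower among cells with neither Xist nor Y-linked UMIs. Cells with both light chain types fell from 39.6% to 16.6% when 2 UMIs of each were asked, and were 38.0% to 42.4% without each sublibrary. Of genes past 2-fold between pools, 326 became 607 with any Sox5 count, 5421 with no minimum, 104 at 60 UMIs and 182 when spread, a count chosen after seeing the data as was the limit of 5 rule genes. Leaving out each sublibrary gave 313 to 355, of which 146 to 215 were among the 326; without sublibrary 1, 166 were higher and 147 lower. For B cells without over with Sox5, 674 became 1928 with no minimum and 393 at 60 UMIs, 534 to 700 without each sublibrary, and 264 higher against 374 lower with 5 rule genes. Hhat turned to -0.11 between pools with any Sox5 count and Apba1 to 0.73 with 5 rule genes; the cause was not tested. Of 37 genes named between pools 19 left their interval under some alternative, and 18 of 31 in the Sox5 contrast. With edgeR's TMM factors the median gene stood at 0.07 between pools and 0.04 in the Sox5 contrast. No paired test of animals was possible because each genotype is 1 pool. The sublibraries hold both pools, but they are technical aliquots. Depth, a median of 4394 and 5060 UMIs per member, limits light chains, segments and genes with few UMIs.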

Other observations

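Pecam1, an adhesion molecule of endothelium that some leukocytes also carry, was a gene of the rule's endothelial set and yet was detected in 86.7% of the Cre_Neg and 90.3% of the Cre_Pos members, at 771 and 793 CPM. Cdh5, which is more restricted to endothelium, was detected in 1.67% and 1.38%. In AT2 cells Pecam1 was detected in 10.7% and 11.8%. Cd74, the class II chaperone, which AT2 cells also express, was detected in 97.5% and 96.6% of the members and in 95.1% and 95.7% of the AT2 cells, so it does not mark B cells in this tissue.

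CD23 and CD21, which together separate follicular from marginal zone cells in the spleen, were often found in the same cell: 90 of 265 members held UMIs of both Fcer2a and Cr2, 72 of Fcer2a alone, 41 of Cr2 alone and 62 of neither. Of the 138 B cells with Sox5 the numbers were 25, 12, 32 and 69. Zbtb32 and Fcer2a were found together in 2 members, with 160 holding Fcer2a alone and 4 Zbtb32 alone.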
